A study of Homo sapiens with 8 samples.

Results

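The matrix metalloproteinases *MMP1*, *MMP2*, *MMP3*, *MMP9*, *MMP10*, *MMP13* and *MMP14*, the serine protease gene *PLAU* and the inhibitor genes *TIMP1* and *TIMP3* are described here in PNT2, an established line of immortalized prostate epithelial cells. These 10 genes, of 33791 with a value, were picked by name as matrix proteases often listed as targets of the PEA3 transcription factors (*ETV1*, *ETV4* and *ETV5*) together with their inhibitors, and the rule used no measured value. RNA sequencing was done on 8 libraries, with 2 (replicates A and B) in each of 4 groups. The groups were WT, which is parental PNT2, and 3 derived lines, which are called labelled *ERF* KD, labelled *CIC* KO and the combined line (*ERF* KD + *CIC* KO). Per the study's methods, *ERF* was lowered with short hairpin RNAs from lentivirus, *CIC* was cut with guide RNAs and Cas9, and the combined line carried both. All cells share the PNT2 background, and the labels name no drug or stimulus. The labels do not say which hairpin or guide a library carried, nor whether A and B were separate cultures, so that p-values measure the spread between these libraries, which may be technical.

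*ERF* mRNA did not follow the labels of the single-loss groups. It stood at 55.8 and 55.9 CPM (read counts scaled to a common library size) in WT, at 81.2 and 77.8 CPM in the libraries labelled *ERF* KD, at 18.8 and 11.7 CPM in those labelled *CIC* KO, and at 11.6 and 10.4 CPM in *ERF* KD + *CIC* KO. *CIC* mRNA, which a small Cas9 edit need not lower, was at 128 and 129 CPM in WT and 109 and 109 in labelled *ERF* KD. It was at 132 and 131 CPM in labelled *CIC* KO and 90.9 and 66.4 in the combined line. *ETV1*, a PEA3 factor whose mRNA may answer to loss of either gene and so does not by itself check the labels, was at 11.4 and 11.7 CPM in WT, 70.7 and 49.4 in labelled *ERF* KD, 11.8 and 11.4 in labelled *CIC* KO, and 19.5 and 22.4 in the combined line. By quantitative PCR in PNT2, the paper reports that *ETV4* and *ETV5* rose on *CIC* loss but not on *ERF* silencing. Here *ETV4* was at 17.4 and 23.5 CPM in WT, 65.5 and 51.0 in labelled *ERF* KD and 20.4 and 27.3 in labelled *CIC* KO. *ETV5* was at 21.8 and 28.1, 109 and 82.6, and 31.4 and 34.9 CPM in the same order. The higher values thus stood in the libraries labelled *ERF* KD. In their names, too, the deposited single-loss tables have the letters of the other group. Whether the labels were exchanged was not tested. The labels were kept, and every direction drawn from a single-loss group below belongs to the libraries labelled that way. The fold change between the combined line and WT compares neither single-loss group. Its p-values do draw on them, as the 4 groups were fitted together.

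Metalloproteinases are secreted or membrane-bound enzymes that hold a zinc ion in the active site and cut proteins of the extracellular matrix. The collagenases cut fibrillar collagen, the gelatinases cut denatured and basement membrane collagen, and the stromelysins cut proteoglycans and activate other proteases. Urokinase, the product of *PLAU*, turns plasminogen into plasmin, which degrades fibrin and activates proteases. The TIMP proteins bind metalloproteinases in their active site and block them. Most metalloproteinases are made as inactive precursors, so that mRNA levels are not enzyme activity, which was not measured here.

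Reads that fit several genes are divided between them, so likeness in sequence bears on these values. All 7 metalloproteinases hold a zinc-binding site. The 33 bases that encode this site in their transcripts are shown 5′ to 3′ from GENCODE 29, with the 3 histidine codons that hold the zinc in capitals.

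MMP1: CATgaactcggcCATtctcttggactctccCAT
MMP13: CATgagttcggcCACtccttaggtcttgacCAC
MMP2: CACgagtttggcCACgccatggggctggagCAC
MMP9: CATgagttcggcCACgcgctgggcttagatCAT
MMP3: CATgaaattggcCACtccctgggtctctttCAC
MMP10: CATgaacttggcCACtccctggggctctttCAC
MMP14: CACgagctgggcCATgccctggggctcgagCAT

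The site began at codon 218 of 469 in *MMP1*, 222 of 471 in *MMP13*, 403 of 660 in *MMP2*, 401 of 707 in *MMP9*, 218 of 477 in *MMP3*, 217 of 476 in *MMP10* and 239 of 582 in *MMP14*. The stromelysin pair *MMP3* and *MMP10* was closest, with 31 of 33 bases the same. The next pair, *MMP2* and *MMP14*, had 27 the same, and *MMP1* and *MMP2*, at 18, were farthest apart. Over whole transcripts, 125 runs of 31 bases, which is the word length that kallisto uses by default, occurred in both *MMP3* and *MMP10*. No other pair of the 10 genes shared such a run, and *MMP14*, *TIMP1* and *TIMP3* shared none with any gene.

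In the GENCODE 29 annotation (GRCh38), 4 of the genes lie on the minus strand of chromosome 11 within 185 kb. *MMP10* is at chr11:102770503-102780628, *MMP1* at chr11:102789920-102798160, *MMP3* at chr11:102835801-102843803 and *MMP13* at chr11:102942995-102955734. The others are spread over 6 chromosomes, all on the plus strand. *MMP2* is at chr16:55389700-55506691, *MMP9* at chr20:46008908-46016561 and *MMP14* at chr14:22836557-22849027. *PLAU* is at chr10:73909177-73917497, *TIMP1* at chrX:47582313-47586789 and *TIMP3* at chr22:32801701-32863043. *TIMP1* lies inside *SYN1* and *TIMP3* inside *SYN3*, each on the opposite strand and sharing no exonic base with its host. *PLAU* shares 916 exonic bases with *C10orf55* and *MMP9* shares 430 with *SLC12A5-AS1*, also on the opposite strand. The strandedness of the libraries is not given in the sources used here, so reads in those stretches cannot be placed with certainty. *C10orf55* was at 1.36 to 5.61 CPM, against 86.7 to 155 CPM for *PLAU*.

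The inhibitors made up most of the group's mRNA in every library. Compared per length, in TPM, which divides counts by transcript length and scales each library to the same total, *TIMP1* and *TIMP3* together came to 263 to 359 TPM, *PLAU* to 60.9 to 102 TPM and the 7 metalloproteinases to 27.4 to 51.5 TPM. The inhibitors took 67.5% to 79.3% of the summed TPM of the 10 genes and the metalloproteinases 6.31% to 12.7%. *MMP2* led among these 7 metalloproteinases, with 37.3% to 78.8% of their TPM. Outside the 7, *MMP25* (14.3 TPM) and *MMP15* (12.6 TPM) stood above *MMP2* (12.1 TPM) in replicate A of the combined line. In WT the mean TPM fell in the order *TIMP1* (205 ± 50.8, SD, n = 2), *TIMP3* (139 ± 42.6), *PLAU* (98.8 ± 4.29), *MMP2* (29 ± 1.43), *MMP14* (7.65 ± 2.92), *MMP9* (2.85 ± 2.01), *MMP1* (2.44 ± 2.56), *MMP13* (0.220 ± 0.138), *MMP3* (0.0688 ± 0.0972) and *MMP10*, with no count. The neighbours *MMP9* and *MMP1*, *MMP13* and *MMP3*, and *MMP3* and *MMP10* overlapped between the WT libraries and cannot be ordered, whereas the libraries of the other neighbours did not overlap. *TIMP1* led and *MMP2* was in 4th place in each of the 4 groups, and *PLAU* stood above *TIMP3* in mean TPM in labelled *ERF* KD, where the libraries of these neighbours overlapped.

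**Figure D1:**
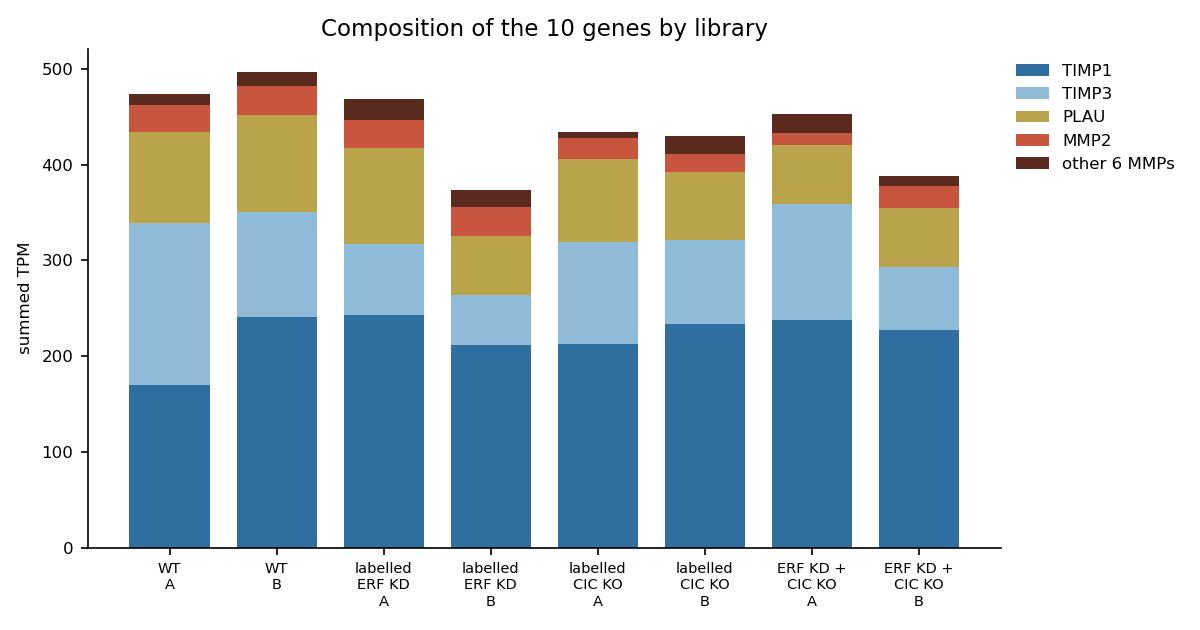
Stacked bars give, for each of the 8 libraries, the summed TPM of the 10 genes, divided into *TIMP1*, *TIMP3*, *PLAU*, *MMP2* and the other 6 metalloproteinases; bars start at 0. The inhibitors fill 67.5% to 79.3% of every bar, and the totals run from 373 to 497 TPM.

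Differences between groups were tested with edgeR (quasi-likelihood F test, Benjamini-Hochberg adjustment over 14653 genes), and a gene with an adjusted p under 0.05 is called changed. Of the 10 genes, 9 passed the filter on low counts, and *MMP10* did not. An exact permutation test of a single gene with 2 libraries against 2 cannot go below p = 0.333, so the calls rest on the spread shared across genes. Against WT, 2 of the 9 tested genes were called in labelled *ERF* KD, where 10.1% of all tested genes were called (4.01% higher and 6.07% lower), and both were lower. In labelled *CIC* KO none of the 9 was called, and 0% of all genes were. In *ERF* KD + *CIC* KO none of the 9 was called, and 0.0682% of all genes were. The edgeR counts at an unadjusted p under 0.05 were 4, 1 and 2 of the 9, beside 24.8%, 4.01% and 13.3% of all tested genes. DESeq2 called 2, 0 and 1, beside 2057, 26 and 444 of all tested genes. With limma on log2(TPM + 1) 0 were called in each, beside 1032, 0 and 1 of all tested genes.

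The median log2 fold change of the 9 tested genes against WT was -0.31 in labelled *ERF* KD, -0.27 in labelled *CIC* KO and -0.46 in the combined line, beside 0.01, 0.01 and 0.00 over all tested genes. In each of these comparisons 4 of the 9 had a positive and 5 a negative value. The libraries of both groups did not overlap for 5 of the 9 in labelled *ERF* KD (2 higher, 3 lower), 5 in labelled *CIC* KO (1 higher, 4 lower) and 6 in the combined line (2 higher, 4 lower). Over all tested genes this held for 56.3%, 32.2% and 49.5%. The 3 comparisons share the WT libraries.

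**Figure D2:**
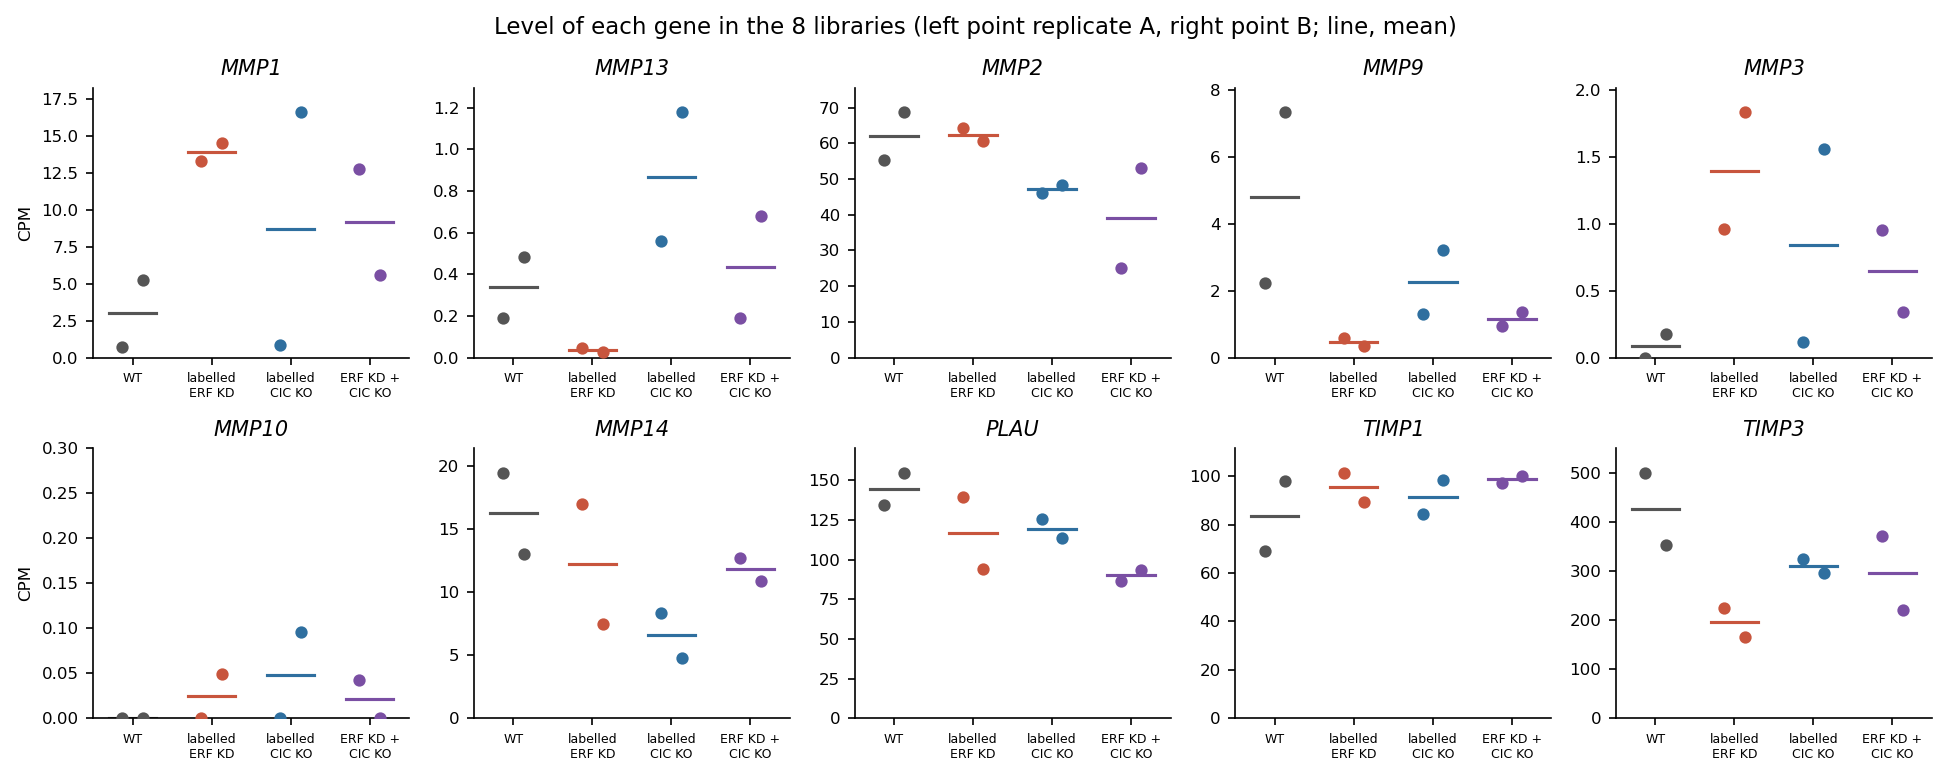
Each panel gives one gene's CPM (linear axis from 0, its own scale) in the 4 groups, with a point for each library, replicate A on the left and B on the right, and a line at the mean. *MMP9* and *TIMP3* in labelled *ERF* KD lie below both WT libraries, the *MMP1* points of labelled *CIC* KO lie 19.8-fold apart, and *MMP10* stays under 0.1 CPM.

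The gelatinases differed in level and in behaviour. *MMP9* was at 2.23 and 7.34 CPM in WT, 0.576 and 0.348 in labelled *ERF* KD, 1.3 and 3.22 in labelled *CIC* KO and 0.931 and 1.35 in *ERF* KD + *CIC* KO. Both labelled *ERF* KD libraries were the lowest of the 8, and the WT libraries lay 3.29-fold apart. *MMP9* fell by 3.35 on the log2 scale in labelled *ERF* KD (SE 0.736, adjusted p = 0.0252, edgeR). Limma did not call it on log2(TPM + 1) (adjusted p = 0.0520) and did on log2(TPM + 0.1) (adjusted p = 0.0343). The edgeR call rests on few reads, 7 to 12 counts in the labelled *ERF* KD libraries against 47 to 144 in WT. It was lost without WT replicate B (-2.25, adjusted p = 0.151), without labelled *ERF* KD replicate A (-3.75, adjusted p = 0.0810) or replicate B (-3.04, adjusted p = 0.125). In *ERF* KD + *CIC* KO the value was -2.07 (SE 0.675, adjusted p = 0.261), with both libraries below both WT libraries, and in labelled *CIC* KO it was -1.08 (SE 0.643, adjusted p = 1), with overlap.

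*MMP2*, the other gelatinase, was at 55.4 and 68.7 CPM in WT, 64.2 and 60.5 in labelled *ERF* KD, 45.9 and 48.2 in labelled *CIC* KO and 25.0 and 53.0 in *ERF* KD + *CIC* KO. The libraries of labelled *CIC* KO and the combined line were below both WT libraries, and those of labelled *ERF* KD lay between them. The log2 changes against WT were 0.01 (SE 0.295), -0.40 (SE 0.296) and -0.67 (SE 0.298) in the order of the groups, and none passed the test (edgeR adjusted p = 0.993, 1 and 0.382). The combined line's libraries lay 2.12-fold apart, more than the means of any pair of groups. Most *MMP2* TPM came from 2 transcripts, of which the more abundant carried 58.1% to 77.3% and the other 22.5% to 39.2%.

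*TIMP3*, an inhibitor that stays bound to the matrix, was the most abundant of the 10 in CPM. It was at 500 and 352 CPM in WT, 224 and 166 in labelled *ERF* KD, 324 and 296 in labelled *CIC* KO and 371 and 221 in *ERF* KD + *CIC* KO. Both labelled *ERF* KD libraries were below both libraries of WT and of labelled *CIC* KO, and in the combined line one library lay within the range of WT and the other below it. *TIMP3* fell by 1.13 on the log2 scale in labelled *ERF* KD (SE 0.276, adjusted p = 0.0383, edgeR), from 6909 to 10527 counts down to 3348 to 4664. In labelled *CIC* KO the value was -0.46 (SE 0.273, adjusted p = 1) and in the combined line -0.53 (SE 0.273, adjusted p = 0.446). *ERF* KD + *CIC* KO stood 0.60 above labelled *ERF* KD (SE 0.274, adjusted p = 0.209), which became a call with the replicate letter as a block (0.58, adjusted p = 0.0251).

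The *TIMP3* call was near the threshold. It was lost without WT replicate A (-0.86, adjusted p = 0.221), WT replicate B (-1.35, adjusted p = 0.0517), labelled *ERF* KD replicate A (-1.35, adjusted p = 0.0632) or replicate B (-0.93, adjusted p = 0.176). It was also lost without labelled *CIC* KO replicate A (adjusted p = 0.0501) or replicate B (adjusted p = 0.0507), with the fold change nearly as before (-1.13 and -1.12). Both limma fits lost it too (adjusted p = 0.0746 on log2(TPM + 1) and 0.0711 on log2(TPM + 0.1)). With the replicate letter as a block the edgeR adjusted p was 0.00125. Replicate B was the lower library of *TIMP3* in all 4 groups, as it was for *MMP14*.

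*TIMP1*, a secreted inhibitor, was not called in any comparison. It was at 69.3 and 97.8 CPM in WT, 101 and 89.4 in labelled *ERF* KD, 84.2 and 98.5 in labelled *CIC* KO and 97.3 and 100 in *ERF* KD + *CIC* KO. The gap between the WT libraries, 1.41-fold, was wider than the gap between any pair of group means. The log2 changes were 0.19, 0.13 and 0.24 (SE 0.179 in each), with edgeR adjusted p-values of 0.566, 1 and 0.591. The summed TPM of *TIMP1* and *TIMP3* in labelled *ERF* KD (317 and 263) was below that of WT (339 and 350). The sum of the 7 metalloproteinases (51.5 and 47.4) was above that of WT (39.9 and 44.6). These sums cover only the 10 genes, are a description and were not tested. Genes outside the 10 did not all follow them. *TIMP2* was at 278 and 198 TPM in labelled *ERF* KD against 211 and 156 in WT. *MMP25* was lower there (5.91 and 7.44 against 20.2 and 12.6 TPM) and *MMP16* higher (2.32 and 8.68 against 2.10 and 2.19 TPM).

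**Figure D3:**
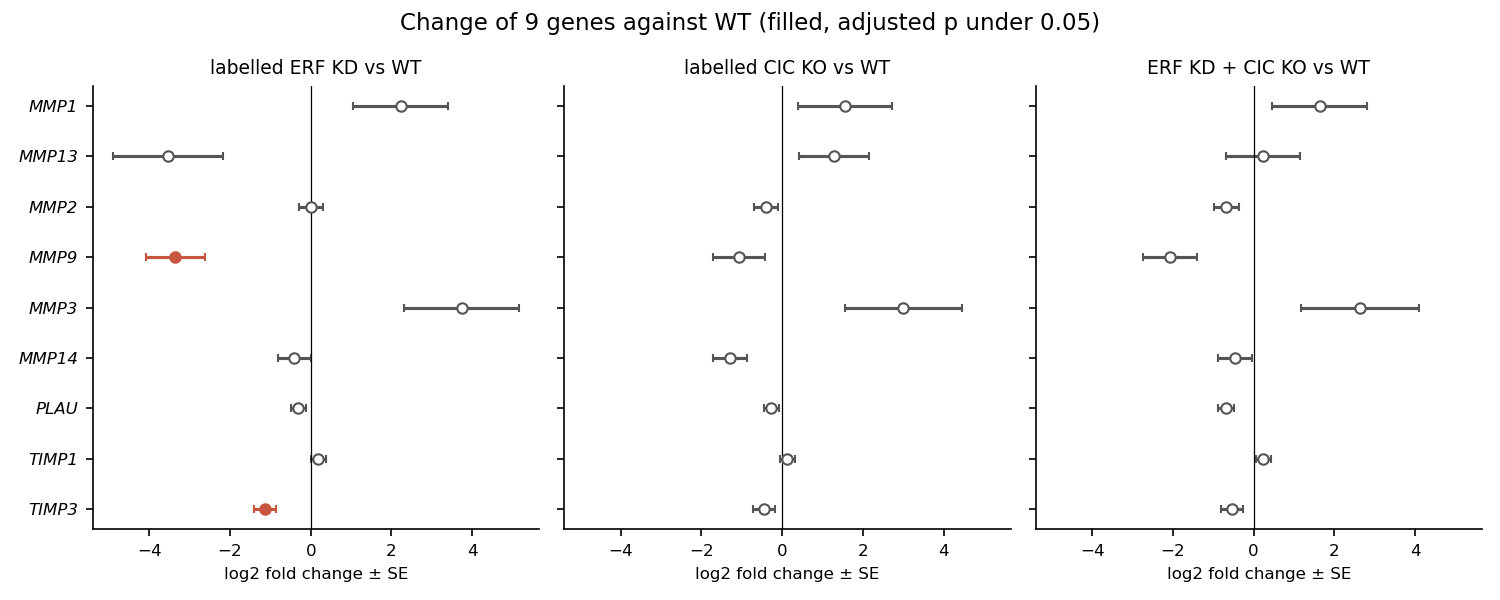
Points give the log2 fold change against WT of the 9 tested genes in each of 3 comparisons, with bars of 1 SE on either side; filled points have an edgeR adjusted p under 0.05. Only *MMP9* (-3.35) and *TIMP3* (-1.13) in labelled *ERF* KD are filled, and the bars are widest for *MMP1*, *MMP3* and *MMP13*.

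The collagenases were low and uneven. *MMP1* was at 0.712 and 5.25 CPM in WT, 13.3 and 14.5 in labelled *ERF* KD, 0.837 and 16.6 in labelled *CIC* KO and 12.7 and 5.58 in *ERF* KD + *CIC* KO. Both libraries of labelled *ERF* KD and of the combined line were above both WT libraries, whereas the labelled *CIC* KO libraries held both nearly the lowest value and the highest. Within groups the libraries lay 7.37-fold apart in WT, 19.8-fold in labelled *CIC* KO, 2.28-fold in the combined line and 1.09-fold in labelled *ERF* KD. The log2 changes were 2.23 (SE 1.18, adjusted p = 0.292), 1.55 (SE 1.17, adjusted p = 1) and 1.63 (SE 1.17, adjusted p = 0.575) by edgeR, and none was called. *MMP1* shares 94 runs of 31 bases with *WTAPP1*, a pseudogene on the opposite strand that was at 0.0480 CPM or less.

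The floor of detection was taken as 3 counts. On each library's counts on genes, without the scaling used for the other values, this equals 0.125 to 0.165 CPM. *MMP13*, the other collagenase, was close to this floor. It was at 0.190 and 0.484 CPM in WT, 0.0480 and 0.0248 in labelled *ERF* KD, 0.558 and 1.18 in labelled *CIC* KO and 0.190 and 0.677 in *ERF* KD + *CIC* KO. Both labelled *ERF* KD libraries were under the floor, with at most 1 count. On the scaled CPM the floor averaged 0.147 over the labelled *ERF* KD libraries. Set against it, labelled *CIC* KO was at least 3.81-fold higher in replicate A (12 counts) and at least 8.04-fold higher in replicate B (24.5 counts). This difference was the single call among the 9 genes in labelled *ERF* KD against labelled *CIC* KO (adjusted p = 0.0493, edgeR), where 9.4% of all tested genes were called. It was lost whichever of the 8 libraries was left out (adjusted p = 0.0545 to 0.197), and with DESeq2 (adjusted p = 0.0521), which called *MMP9* there instead (adjusted p = 0.0350). With the replicate letter as a block 4 genes were called there, beside 16.5% of all tested genes with that block. They were *TIMP3* (adjusted p = 0.0138), *MMP13* (0.0196), *MMP14* (0.0460) and *MMP9* (0.0466). Against WT, *MMP13* had an adjusted p of 0.149 in labelled *ERF* KD, of 1 in labelled *CIC* KO and of 0.937 in the combined line.

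Of the stromelysins, *MMP10* was not detectable above the floor in any library. No library held more than 2 counts, and both WT libraries were at 0. That allows up to 3 counts, or 0.149 and 0.153 CPM without the scaling used for the other values. *MMP3* had 0 and 0.178 CPM in WT, 0.961 and 1.84 in labelled *ERF* KD, 0.116 and 1.56 in labelled *CIC* KO and 0.952 and 0.338 in *ERF* KD + *CIC* KO. One WT and one labelled *CIC* KO library were under the floor, and both libraries of labelled *ERF* KD and of the combined line were above both WT libraries. The log2 changes of 3.74 (SE 1.42, adjusted p = 0.146), 3.0 (SE 1.44, adjusted p = 1) and 2.63 (SE 1.46, adjusted p = 0.474) were not called by edgeR, and their size depends on the small count that the fit adds. The largest *MMP3* count was 37. Replicate B was the higher library of *MMP1* and *MMP3* in WT, labelled *ERF* KD and labelled *CIC* KO and the lower one in the combined line.

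*MMP14*, a membrane-anchored protease that activates the MMP2 precursor, was at 19.4 and 13 CPM in WT, 17 and 7.50 in labelled *ERF* KD, 8.37 and 4.76 in labelled *CIC* KO and 12.7 and 10.9 in *ERF* KD + *CIC* KO. The libraries of labelled *CIC* KO and of the combined line lay below both WT libraries, and one of labelled *ERF* KD fell within their range. The largest difference was that of labelled *CIC* KO, -1.3 on the log2 scale (SE 0.423, unadjusted p = 0.0146, adjusted p = 1, edgeR). The values in labelled *ERF* KD and the combined line were -0.41 (SE 0.413, adjusted p = 0.601) and -0.46 (SE 0.413, adjusted p = 0.660).

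*PLAU* was at 134 and 155 CPM in WT, 139 and 94.2 in labelled *ERF* KD, 125 and 114 in labelled *CIC* KO and 86.7 and 93.4 in *ERF* KD + *CIC* KO. Both libraries of the combined line were the lowest of the 8, and those of labelled *CIC* KO were also below WT. The combined line's log2 change was -0.68 (SE 0.189, unadjusted p = 0.00653, adjusted p = 0.197, edgeR), which DESeq2 called (-0.69, adjusted p = 0.0385). Labelled *ERF* KD, at -0.31 (SE 0.188, adjusted p = 0.364), and labelled *CIC* KO, at -0.27 (SE 0.188, adjusted p = 1), did not pass either test. One of its 5 annotated transcripts carried 79.7% to 87.4% of the gene's TPM.

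None of the 9 genes was called in the combined line against labelled *CIC* KO (by edgeR 0 had an unadjusted p under 0.05, beside 8.3% of all tested genes, and DESeq2 and limma called 0), where 0% of all tested genes were. None was called against labelled *ERF* KD (1 at an unadjusted p under 0.05, beside 26.4% of all tested genes, 0 by DESeq2 and limma), where 11.7% of all tested genes were. The interaction term asks whether the combined line differs from the sum of the single-loss changes, and 4.15% of all tested genes were called for it. None of the 9 was (2 at an unadjusted p under 0.05, beside 17.5% of all tested genes, 0 by DESeq2 and limma). Over all tested genes DESeq2 called 146, 2320 and 1112 in the order of these comparisons. With limma on log2(TPM + 1) the numbers were 0, 1113 and 312. With the replicate letter as a block the interaction term was called for *TIMP3* (1.01, adjusted p = 0.0183) and *MMP14* (1.37, adjusted p = 0.0410). With that block it was called for 9.55% of all tested genes. As the term is built from the single-loss groups, the doubt on their labels does not change which libraries enter it.

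Other genes of matrix proteolysis were called in both directions in labelled *ERF* KD. Of 33 further proteases, inhibitors and regulators, 23 were tested. Against WT, 1 was called higher and 3 lower in labelled *ERF* KD, where 10.1% of all tested genes were called. There 8 of the 23 had an unadjusted p under 0.05, beside 24.8% of all tested genes, and the median log2 change was 0.21, beside 0.01. None was called in labelled *CIC* KO or in the combined line (2 each at an unadjusted p under 0.05 by edgeR, beside 4.01% and 13.3%). With the replicate letter as a block these counts were 9, 0 and 2, beside 18.2%, 0.00682% and 2.49% of all tested genes.

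*RECK*, a membrane-anchored inhibitor of metalloproteinases, rose from 11.3 and 10.6 CPM in WT to 24.8 and 18.4 in labelled *ERF* KD (log2 change 0.98, SE 0.237, adjusted p = 0.0368, edgeR). *MMP25*, a membrane-anchored metalloproteinase known from leukocytes, fell from 32.3 and 22.1 CPM to 9.70 and 7.85 (-1.63, SE 0.285, adjusted p = 0.00949). *MMP15*, another membrane-type enzyme, fell from 33.1 and 31.6 CPM to 22.8 and 20.5 (-0.58, SE 0.137, adjusted p = 0.0332). *SERPINF2*, which encodes the plasmin inhibitor antiplasmin, fell from 3.42 and 2.96 CPM to 0.769 and 0.298 (-2.56, SE 0.503, adjusted p = 0.0158). For each of these 4 genes the libraries of the groups did not overlap, which also held for 56.3% of all tested genes. As the 4 were picked by their call, this adds no support to it. The labelled *ERF* KD libraries stood outside the range of the other 6 libraries, and the share of all genes with that trait was not counted. With each of the 8 libraries left out in turn, *MMP25* stayed called in 6 fits, *SERPINF2* in 5, *RECK* in 3 and *MMP15* in 3. Without WT replicate A all 4 calls were lost (edgeR adjusted p = 0.0638 for *MMP25*, 0.0802 for *SERPINF2*, 0.164 for *RECK* and 0.207 for *MMP15*).

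In *ERF* KD + *CIC* KO against labelled *ERF* KD, 3 of the 23 were called higher (*MMP25*, *MMP15* and *SERPINF2*) and 3 lower (*TIMP2*, *RECK* and *MMP16*), where 11.7% of all tested genes were called. In labelled *ERF* KD against labelled *CIC* KO, where 9.4% were called, *TIMP2*, *RECK* and *MMP16* were called higher and *MMP15* and *SERPINF2* lower. *TIMP2*, a secreted inhibitor that also takes part in MMP2 activation, was at 497 and 406 CPM in WT, 678 and 512 in labelled *ERF* KD, 345 and 280 in labelled *CIC* KO and 327 and 294 in the combined line. *MMP16*, a membrane-type protease, was at 8.64 and 9.58 CPM in WT, 12.3 and 30.2 in labelled *ERF* KD, 3.07 and 5.48 in labelled *CIC* KO and 1.65 and 3.16 in the combined line. Both were highest in labelled *ERF* KD, and neither passed the test there against WT (adjusted p = 0.242 and 0.150, edgeR), but both did with the replicate letter as a block (0.39, adjusted p = 0.0367, and 1.08, adjusted p = 0.0282). In the combined line against WT both were called lower with the block only (-0.53, adjusted p = 0.0442, and -2.01, adjusted p = 0.0220). Of the 23, the interaction term was called for *MMP25* alone (1.79, SE 0.395, adjusted p = 0.0454, edgeR), and the call stayed in 1 of 8 fits with a library left out (adjusted p = 0.0457 to 0.163).

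**Figure D4:**
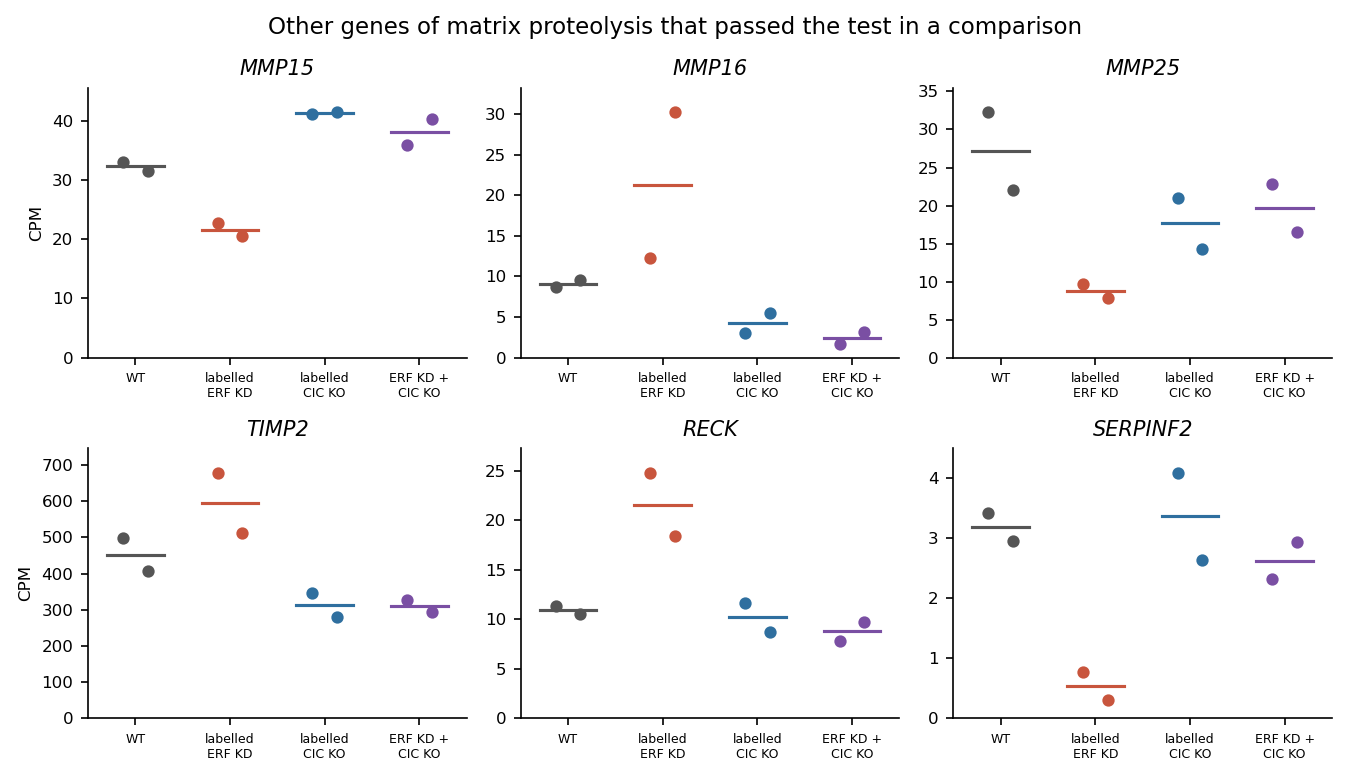
Panels give the CPM (linear axis from 0) of the 6 genes of the wider list that were called in at least one comparison, with points for replicates A (left) and B (right) and a line at the group mean. *MMP15*, *MMP25* and *SERPINF2* are lowest and *RECK*, *MMP16* and *TIMP2* highest in labelled *ERF* KD.

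Genes that mark cell types moved in the same libraries. The summed CPM of 6 genes of prostate epithelium was 3793 to 4633 in WT, 1645 to 2107 in labelled *ERF* KD, 4049 to 5208 in labelled *CIC* KO and 3932 to 5035 in *ERF* KD + *CIC* KO, and 5 of the 6 were called lower in labelled *ERF* KD. The 3 mesenchymal genes *VIM*, *ZEB1* and *CDH2* summed to 156 to 279 CPM in WT and 1716 to 2197 in labelled *ERF* KD, where 3 of 3 were called higher. Genes of macrophages and neutrophils, cells known to make MMP9 and MMP25, summed to 15.4 to 18.0 CPM in WT and 4.53 to 12.0 in labelled *ERF* KD, with 1 of 6 called lower (*CSF1R*, from 10.3 and 8.97 CPM to 1.39 and 0.646). Without *CSF1R* the sums overlapped, at 7.72 and 6.43 CPM in WT and 10.6 and 3.88 in labelled *ERF* KD. Fibroblast genes summed to 30.9 to 49.0 CPM in WT and 41.3 to 114 in labelled *ERF* KD, with 1 of 7 called higher (*COL3A1*), while *LUM* was at 0 in all libraries. Endothelial genes summed to 7.95 to 12.6 CPM in WT, 4.22 to 15.8 in labelled *ERF* KD, 9.14 to 36.4 in labelled *CIC* KO and 16.3 to 67.0 in the combined line, with 0 of 3 called. Most of that sum was *CDH5*, at 65.4 and 15 CPM in the combined line, where *PECAM1* was at 0.727 and 0.966 CPM against 1.66 and 2.45 in WT. All libraries are of the PNT2 line, and the sources name no leukocytes, fibroblasts or endothelial cells added to it. The sums are thus levels of these mRNAs in that line and not numbers of such cells. The part of these shifts in the *MMP9*, *TIMP3*, *RECK* and *MMP25* values was not tested. Fewer PNT2 cells of one state and less RNA per cell cannot be told apart in bulk RNA.

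*ETV1*, *ETV4* and *ETV5* were called higher in labelled *ERF* KD (log2 changes 2.38, 1.51 and 1.95). Metalloproteinase promoters are also known for sites of AP-1, the dimer of Fos and Jun proteins. Of the AP-1 genes, *JUNB* was called lower there (-1.58, adjusted p = 0.00164, edgeR), while *FOSL1* (1.29, adjusted p = 0.0628), *JUN* (0.88, adjusted p = 0.0736), *FOSL2* (0.25, adjusted p = 0.443) and *FOS* (0.41, adjusted p = 0.536) were not. *FOSL1* and *JUN* were called higher with the replicate letter as a block (adjusted p = 0.00218 and 0.0235) and by DESeq2 (adjusted p = 0.00131 and 0.00816). Neither gene's libraries overlapped those of WT, which held for 56.3% of all tested genes. In *ERF* KD + *CIC* KO, *ETV1* (0.86, adjusted p = 0.128), *ETV4* (1.61, adjusted p = 0.0590) and *ETV5* (1.29, adjusted p = 0.0613) were not called by edgeR against WT. DESeq2 called all 3 there (adjusted p = 0.0212, 2.84e-08 and 5.06e-06), and the block called *ETV4* and *ETV5* (adjusted p = 0.0139 and 0.0204).

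RefSeq promoter sequence (GRCh38.p14) was held for 5 of the 10 genes, *MMP10*, *MMP14*, *PLAU*, *TIMP1* and *TIMP3*, with 2 starts for *PLAU*. The 250 bases before each start were searched on both strands for the ETS core GGAA, the AP-1 site TGANTCA and the CIC sites TGAATGAA and TGAATGGA. The promoter of *TIMP3*, the called gene among them, and that of *MMP10*, the gene that stayed under the floor, are shown 5′ to 3′ on the gene's strand, with matches in capitals.

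TIMP3, chr22:32801455-32801700, plus strand: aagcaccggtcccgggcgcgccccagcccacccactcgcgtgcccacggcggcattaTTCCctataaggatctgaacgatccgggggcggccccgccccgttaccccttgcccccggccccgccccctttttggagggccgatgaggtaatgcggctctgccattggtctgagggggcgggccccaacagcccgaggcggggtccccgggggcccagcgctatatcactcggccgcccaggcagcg
MMP10, chr11:102780629-102780878, minus strand: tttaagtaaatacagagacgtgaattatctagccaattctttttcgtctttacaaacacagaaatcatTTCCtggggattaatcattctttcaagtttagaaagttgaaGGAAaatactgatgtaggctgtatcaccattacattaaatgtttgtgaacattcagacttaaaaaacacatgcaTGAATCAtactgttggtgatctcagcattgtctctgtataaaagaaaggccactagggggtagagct

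The *TIMP3* window held 1 ETS core and no AP-1 match. The *MMP10* window held 2 ETS cores and 1 AP-1 match. *MMP14* and *TIMP1* held 4 ETS cores each, and the 2 *PLAU* starts 3 and 4, with no AP-1 match. No window held either of the CIC sites that were searched. Over 35116 RefSeq promoters of the same length, 92.7% held an ETS core, with a median of 3, 6.57% held an AP-1 match and 2.19% a CIC match. An ETS core is thus common to nearly all promoters, and a match is a run of letters and not evidence of binding.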

How the data were processed

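RNA of 8 PNT2 libraries was sequenced by a company. The authors deposited, per library, unnormalized estimated counts of each transcript together with its TPM, both in kallisto's table format. The study's methods name RSEM for gene-level values, the submitters' processing notes name the build hg19, and the kallisto version and strandedness are not given in the sources used here. Of 180253 transcripts per table, 153245 (85.0%) were matched by identifier to GENCODE 29, whose GRCh38 coordinates are printed. Estimated counts were summed over 33791 genes (93.2% to 93.3% of each library's counts) and rounded to whole numbers for the tests. Library totals ran from 19477473 to 25813157. The floor of detection, 3 counts, equals 0.125 to 0.165 CPM of the counts on genes before TMM scaling, whereas the CPM values of genes are TMM-scaled. The spread between replicates does not show the uncertainty of reads that fit several transcripts.

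Counts of the 4 groups were fitted together with edgeR 4.0.16 (TMM, filterByExpr, glmQLFit and glmQLFTest) in R 4.3.3, with 14653 genes tested. A gene was called at a Benjamini-Hochberg adjusted p under 0.05. The SE is the log2 change divided by the square root of F. DESeq2 1.42.0, limma 3.58.1 on log2(TPM + 1) and log2(TPM + 0.1), no filter on low counts, length-scaled counts, the replicate block and leaving out each library were the alternatives. A fit of only the groups compared was added after the data were seen. The code was tested on simulated data. Replicate letters may pair the libraries. Deviations of same-lettered libraries from their group means correlated at 0.136 to 0.335 in each of 6 pairs of groups. The main fit held the group only and did not use this pairing, which entered only with the replicate block. The biological coefficient of variation was 0.197 in the main fit and 0.142 with the block. Replicates differed by more than sampling noise (chi-square per degree of freedom 21.7 to 43.4).

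All 10 genes are named, as is each gene of the wider list of 33 called in a comparison. For each gene called, the 2 coding genes with the smallest root mean square difference in centred log2 CPM were found. The genes, lists and tests were chosen with earlier results of these data known.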

Additional observations from a re-analysis of the deposited data

Results flagged for a closer look

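*MMP25* stood out because its change in the combined line differed from the sum of the single-loss changes, by an interaction term of 1.79 on the log2 scale (SE 0.395, adjusted p = 0.0454, edgeR's quasi-likelihood test). With a library left out the adjusted p was 0.0457 to 0.163. Against WT its log2 changes were -1.63 in labelled *ERF* KD, -0.62 in labelled *CIC* KO and -0.46 in the combined line.

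*MMP13* stood out because its libraries moved in opposite directions from WT in the single-loss groups, with fitted log2 changes of -3.54 in labelled *ERF* KD and 1.28 in labelled *CIC* KO. The difference between the single-loss groups was itself tested (adjusted p = 0.0493, edgeR's quasi-likelihood test), with adjusted p-values of 0.00186 to 0.197 over its alternatives, and the fitted values depend on labelled *ERF* KD libraries that hold at most 1 count.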

How the results depend on the processing

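Of 417 values of single genes under other settings, 371 kept their direction and their side of the threshold, 25 lost a call, 9 gained one and 12 changed sign, 11 of these when a library was left out. *MMP2* in labelled *ERF* KD against WT, near 0 throughout, was -0.0075 with only the groups compared. With a library left out, the values that changed sign ran from -0.15 to 0.17 for *MMP2*, -1.11 to 0.066 for *MMP14* and -0.041 to 0.46 for *TIMP1* in labelled *ERF* KD, from -1.82 to 3.60 for *MMP1*, -0.092 to 7.13 for *MMP3*, -1.87 to 0.020 for *MMP9* and -0.10 to 0.40 for *TIMP1* in labelled *CIC* KO, and from -1.01 to 1.09 for *MMP13* in the combined line. The labelled *CIC* KO values of *MMP1* and *MMP3* changed sign without its replicate B. With only the groups compared, *TIMP3* and *MMP9* stayed called in labelled *ERF* KD against WT (adjusted p = 0.0380 and 0.0420, edgeR), and *MMP13* was not tested there.

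The number of the 9 genes called in labelled *ERF* KD against WT was 2. It became 4 with no filter on low counts, 0 with limma at a pseudocount of 1, 1 with limma at 0.1, and 0 to 2 with a library left out. In labelled *CIC* KO against WT it went from 0 to 2 with no filter, and in the combined line against WT to 4 with no filter and 1 with DESeq2. In the combined line against labelled *ERF* KD it went from 0 to 3 with no filter, 1 with the replicate block and 0 to 1 with a library left out (1 without the combined line's replicate B). In labelled *ERF* KD against labelled *CIC* KO it went from 1 to 4 with no filter and to 4 with the replicate block. There it fell to 0 with either limma fit, with length-scaled counts, with only the groups compared and whichever library was left out. For the interaction it went from 0 to 5 with no filter and 2 with the replicate block, which changed no other count of these genes. The fit with no filter held every gene, also those with almost no reads, and the cause of the changes was not tested.

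Over all genes, labelled *ERF* KD against WT had 1477 calls, 2671 with the block, 2577 with no filter and 620 to 1477 with a library left out. The combined line against WT had 10, 365 with the block, 444 with DESeq2, 768 with no filter, 5 with length-scaled counts, 1 and 7 with limma and 0 to 8 with a library left out. Labelled *CIC* KO against WT had 0, 26 with DESeq2, 123 with no filter, 1 with the block and 0 to 1 with a library left out. The combined line against labelled *CIC* KO had 0, 49 with the block, 146 with DESeq2 and 426 with no filter. Against labelled *ERF* KD it had 1709, 3014 with the block, 2798 with no filter and 702 to 1638 with a library left out. Labelled *ERF* KD against labelled *CIC* KO had 1377, 2424 with the block, 2367 with no filter, 829 with only those groups and 729 to 1206 with a library left out. The interaction had 608, 1400 with the block, 1112 with DESeq2, 1645 with no filter, 312 and 314 with limma and 272 to 554 with a library left out. Depth limits *MMP3*, *MMP10* and *MMP13*, which had 3 counts or fewer in 2, 8 and 2 of the 8 libraries.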

Other observations

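Over the 8 libraries and 12608 coding genes considered, the genes whose centred log2 CPM lay closest to that of *MMP9* were *PI3*, which encodes the protease inhibitor elafin (root mean square difference 0.405), and *IL32*, an inflammatory cytokine gene (0.465). *IL32* was at 5.13 and 8.57 CPM in WT, 0.727 and 1.05 in labelled *ERF* KD, 3.68 and 7.46 in labelled *CIC* KO and 1.44 and 3.5 in *ERF* KD + *CIC* KO, and its log2 change of -2.95 in labelled *ERF* KD was called (adjusted p = 0.0155, edgeR). *PI3* had -2.60 there and was not called (adjusted p = 0.0846). Closest to *TIMP3* were *KIAA1257* (0.183) and *C1QTNF6* (0.187). *KIAA1257* was at 2.45 and 2.16 CPM in WT and 1.38 and 1.11 in labelled *ERF* KD, and was not called (-0.89, adjusted p = 0.229, edgeR). *C1QTNF6* was at 118 and 94.1 CPM in WT and 63.3 and 43.5 in labelled *ERF* KD, and was called (-0.99, adjusted p = 0.0335). Closest to *MMP13*, whose own values were close to the floor, were *ACTA2* (0.380), a smooth muscle actin gene, and *ADGRE2* (0.406), an adhesion receptor gene of myeloid cells. In labelled *ERF* KD against WT, *ADGRE2* was called (-1.62, adjusted p = 0.0480, edgeR) and *ACTA2* was not (-1.68, adjusted p = 0.165). These differences are to be read beside the root mean square of each gene's own centred values, 1.21 for *MMP9*, 0.472 for *TIMP3* and 1.11 for *MMP13*. They are a description over 8 libraries.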
